A study of Mus musculus with 9 samples.

Results

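Differentially methylated regions (DMRs) at the 3′ ends of transcripts of protein-coding genes were described in the hypothalamus of neonatal mice. A DMR was counted as a member if its centre lay from 100 bp before to 1000 bp past the 3′ end of an annotated transcript of a protein-coding gene and outside every promoter, the window from 1000 bp before to 100 bp after a transcript start. On the autosomes 427 of 12845 DMRs met this rule, which is 3.32% of them, and they lay at 433 of 20807 protein-coding genes. The rule used positions alone and no methylation value.

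The DNA came from the hypothalamus of male C57/Bl6 pups collected in the first postnatal week. Control pups were littermates without the procedure, and pups of the modified maternal separation (MMS) group were taken from the dam for a short time each day and handled repeatedly meanwhile, so separation and handling cannot be told apart. The DNA of several males was combined in each of 3 control and 3 MMS pools, so animals were not measured singly. The methylated DNA immunoprecipitation (meDIP) libraries were accompanied by 2 inputs and 1 IgG control.

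The 3′ end of a transcript is where the nascent RNA is cut and a poly(A) tail is added, usually a short way past a signal hexamer in the RNA. Many genes have several annotated transcript ends, and those inside the gene can belong to shortened or incompletely spliced RNAs. The annotation was taken as it stands, and whether RNA is cut at an internal end was not examined here. In mammals the bodies of transcribed genes usually carry methylated CpG sites, while CpG-rich promoters usually carry few. In meDIP an antibody against methylated cytosine pulls down DNA fragments, so the reads over a region depend on its methylation and on how many CpG sites it holds.

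The table gives each DMR the mean of normalised reads of the control pools and that of the MMS pools on the log2 scale, and these are the levels given throughout. A level of 0 therefore stands for 1 normalised read, and a difference of 1 for a doubling. Values of single pools were not analysed here, so no spread between pools and no test between groups accompanies any difference below. Only regions that had passed the authors' own comparison are listed, so all listed regions differ and none serves as an unchanged reference. The depth of each library is not given by the table. The lowest value of the control column, -0.17, equals 0.889 normalised reads and that of the MMS column, -0.24, equals 0.847, and where the lower group sits there, the size of a difference rests on how that value was set. Markers of cell type could not be examined, because no expression was measured in these libraries.

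Sequence inside 9 DMRs, taken from the RefSeq copy of the GRCm38 (mm10) reference on its plus strand, is shown here. Of these, 8 were chosen for a large difference or for their CpG content, and Fkbp5 for its role in the stress response. Capitals mark CpG sites, the bases at which mammalian DNA is mainly methylated. The following 4 DMRs had the higher level in MMS. Pou2f2 and Slc11a2 were those with the largest differences among members whose control level was more than 0.5 above its lowest value, and Nbeal2 and Acin1 were the members with the most CpG per 100 bp.
Pou2f2, chr7:25099857-25100036: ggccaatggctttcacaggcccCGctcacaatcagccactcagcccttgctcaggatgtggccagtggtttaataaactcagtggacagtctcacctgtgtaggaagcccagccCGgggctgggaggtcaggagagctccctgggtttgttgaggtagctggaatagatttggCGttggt
Slc11a2, chr15:100409757-100409936: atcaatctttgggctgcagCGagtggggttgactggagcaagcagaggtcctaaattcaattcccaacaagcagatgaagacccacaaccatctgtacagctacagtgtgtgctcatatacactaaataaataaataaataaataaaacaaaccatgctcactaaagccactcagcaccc
Nbeal2, chr9:110633956-110634135: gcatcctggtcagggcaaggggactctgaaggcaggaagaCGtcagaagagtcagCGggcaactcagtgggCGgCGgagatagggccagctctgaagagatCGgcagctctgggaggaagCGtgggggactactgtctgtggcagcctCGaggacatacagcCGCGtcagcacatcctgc
Acin1, chr14:54642731-54642892: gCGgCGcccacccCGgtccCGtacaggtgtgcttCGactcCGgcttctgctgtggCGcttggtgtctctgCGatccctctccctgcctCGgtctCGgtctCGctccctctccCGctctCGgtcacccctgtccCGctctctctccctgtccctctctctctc

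The following 5 DMRs had the higher level in control. Timeless and Fn1 showed the largest falls in MMS to a level clear of the lowest value, Dcun1d1 was the CpG-richest member higher in control and Mob2 held no CpG site. Fkbp5, which encodes a co-chaperone of the glucocorticoid receptor, was added after its values were seen.
Timeless, chr10:128244694-128244873: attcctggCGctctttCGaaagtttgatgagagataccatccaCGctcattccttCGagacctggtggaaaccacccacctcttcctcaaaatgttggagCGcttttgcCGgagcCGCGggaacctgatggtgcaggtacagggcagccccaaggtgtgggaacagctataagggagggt
Fn1, chr1:71597670-71597837: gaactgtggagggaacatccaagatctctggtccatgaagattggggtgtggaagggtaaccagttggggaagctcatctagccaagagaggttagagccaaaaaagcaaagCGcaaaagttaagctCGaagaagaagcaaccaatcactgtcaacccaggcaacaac
Dcun1d1, chr3:35908649-35908828: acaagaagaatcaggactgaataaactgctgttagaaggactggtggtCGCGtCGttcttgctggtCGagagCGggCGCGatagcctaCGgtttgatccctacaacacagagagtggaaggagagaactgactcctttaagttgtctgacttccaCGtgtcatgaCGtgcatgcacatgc
Mob2, chr7:142012632-142012802: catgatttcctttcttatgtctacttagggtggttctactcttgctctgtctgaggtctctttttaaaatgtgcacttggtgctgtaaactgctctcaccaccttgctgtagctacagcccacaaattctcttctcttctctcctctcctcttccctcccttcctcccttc
Fkbp5, chr17:28398573-28398752: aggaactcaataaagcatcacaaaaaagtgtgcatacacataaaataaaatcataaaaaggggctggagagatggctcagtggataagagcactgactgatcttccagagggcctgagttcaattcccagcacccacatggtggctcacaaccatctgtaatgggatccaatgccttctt

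In these stretches of at most 180 bases the number of CpG sites ranged from 0 in Mob2 and Fkbp5 to 14 in Acin1. Timeless held 8 in its 180 bases and Fn1 held 2 in its 168. The spread reflects the choice of Nbeal2, Acin1, Dcun1d1 and Mob2 by CpG content.

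The name of the group was checked against the annotation, and most members did not lie at the end of the gene itself. Only 114 members (26.7%) had their centre in the window of the outermost 3′ end of their gene, and 313 (73.3%) lay at internal ends alone. The gene is that of the nearest end. Of all 88369 distinct transcript ends, 20807 (23.5%) were outermost ends, so by number of ends the split was near that of the ends available. By length of sequence, DMRs were sparser at outermost ends. Windows there made up 21.2 of the 62.0 Mb of windows and held 5.67 DMRs per Mb, against 6.89 in all windows. The internal ends of members lay a median of 7776 bp before the outermost end. Accordingly, 324 members (75.9%) had their centre inside the body of the same gene. The regions are therefore called DMRs at transcript 3′ ends, and the 114 at outermost ends are given separately where they differ.

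The rule's window lies mostly past the transcript end, so it places most centres there whatever the data. Per 100 bp of distance, members were no rarer before the end, with 46.5 in the last 100 bp of the transcript and 46.4 from 1 to 250 bp past the end. The classes from 251, 501 and 751 bp had 34.8, 38.4 and 32.4. Distance was taken to the nearest end whose window held the centre, which favours short distances in genes with several ends. The sequence available in each class was not counted. The median distance from the end to the DMR centre was 377 bp, with quartiles of 125 bp and 669.5 bp, and 47 members (11.0%) had their centre in the last 100 bp before or on the end. The end itself lay inside the DMR in 181 members (42.4%). A centre in an exon was found for 133 members (31.1%), which included 67 (15.7%) in a 3′ UTR and 55 (12.9%) in coding sequence. The nearest end belonged to a protein-coding transcript in 238 members (55.7%, against 56.7% of all ends), to a transcript with a retained intron in 103 (24.1%, against 22.3%) and to another type in 86 (20.1%, against 21.1%).

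**Figure D1:**
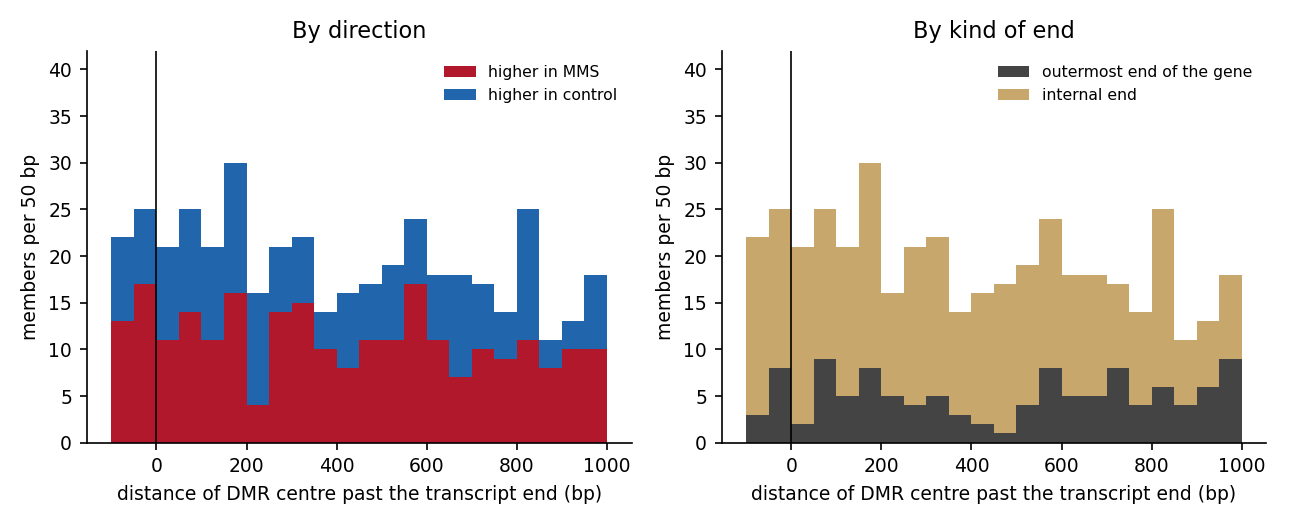
Members per 50 bp by the distance of the DMR centre past the transcript end that placed it (0, vertical line), stacked by direction of the difference (left) and by kind of end (right). The 114 members at outermost ends and the 313 at internal ends both spread over the whole window.

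Per length of sequence, DMRs were somewhat denser in the windows at transcript ends than in the genome. The windows covered 62.0 Mb, or 2.59% of the autosomes, and held 6.89 members per Mb, where all autosomal DMRs came to 5.36 per Mb. Promoter windows held 6.02 DMRs per Mb. Windows at outermost ends alone held 5.67 per Mb (120 DMRs in 21.2 Mb), closer to the value for all autosomes. Genes with a member were longer, with a median of 29629 bp against 17629 bp for all protein-coding genes, and had a median of 6 distinct ends against 3. Length and number of ends set how many windows a gene offers, and their part in these counts was not tested.

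DMR centres were not more frequent at the outermost ends of long genes than around them. Around the ends of 13520 genes of at least 10000 bp, the bins of 500 bp on either side of the end held 35 centres each (5.18 per Mb; exact Poisson 95% interval of the count, 24.4 to 48.7, for counting error only), the lowest counts of the 20 bins. Inside the gene, counts ran from 39 to 69 in the other 9 bins, with the highest (10.2 per Mb; interval 53.7 to 87.3) from 3500 to 3000 bp before the end. Past the end the other 9 bins held 44, 52, 47, 40, 45, 37, 40, 56 and 56. All of these intervals past the end overlapped that at the end, and those of the bins with 56 centres ran from 42.3 to 72.7. Overlap of intervals cannot decide whether counts differ, and a dip relative to the downstream side was not tested. Inside the gene, the intervals of the bins with 66 and 69 centres started at 51.0 and 53.7, wholly above that at the end. The intervals of the other bins inside the gene overlapped that at the end. The CpG content of the genome also had its lowest value in the first bin past the end, with 1.09 per 100 bp, and its highest, 1.27, from 1000 to 500 bp before it. The part of CpG content in the count was not tested.

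**Figure D2:**
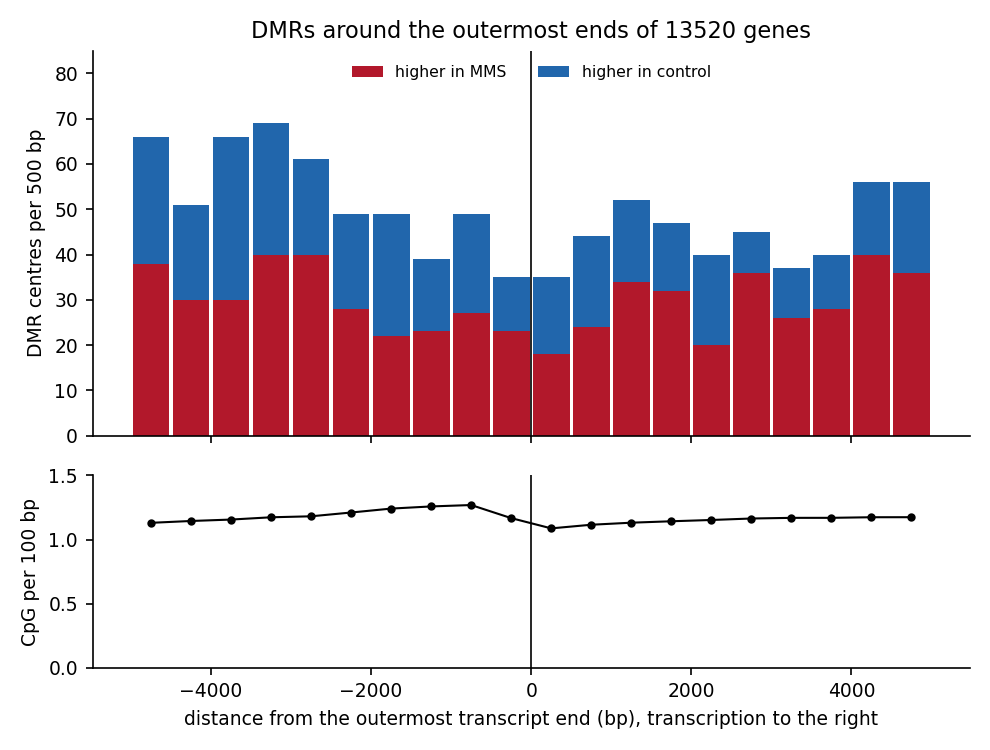
Top, number of DMR centres per 500 bp around the outermost 3′ ends of 13520 protein-coding genes of at least 10000 bp, stacked by direction; bottom, CpG sites per 100 bp of the reference in the same bins. The 2 bins beside the end hold 35 centres each, fewer than any other bin.

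More members had the higher level in MMS than in control, by a smaller margin than among all DMRs. There were 248 members higher in MMS (58.1%) and 179 higher in control, and the share among all autosomal DMRs was 62.4%. The 95% Wilson interval of the members' share, which covers counting error only and takes regions as independent, ran from 53.3% to 62.7%, so the share was not distinguishable from that of all DMRs. Promoter DMRs had 65.8% higher in MMS (223 of 339), exon DMRs 59.1% (257 of 435), intron DMRs 62.1% and DMRs outside protein-coding genes 62.9%. The share changed under limits that themselves select by direction, since the higher level had a median of 4.20 in members higher in MMS and 5.21 in those higher in control. Of the 328 members whose higher level was at least 4, 46.3% were higher in MMS, as were 48.8% of all autosomal DMRs with such a level. With a difference of at least 2 the shares were 80.4% and 80.5%, so members moved with the whole table.

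The share varied little with the kind of end. It was 56.1% at outermost ends (64 of 114) and 58.8% at internal ends (184 of 313). At ends of protein-coding transcripts it was 55.5%, at retained-intron transcripts 64.1% and at the other types 58.1%. By distance, the 116 members from 1 to 250 bp past the end included 56 higher in MMS (48.3%), the only distance class with a minority, and the 87 members from 251 to 500 bp included 58 (66.7%). The shares in the last 100 bp of the transcript, from 501 to 750 bp and from 751 to 1000 bp were 63.8%, 58.3% and 59.3%. The share followed no order along the distance.

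The directions differed in how the levels were built. In members higher in MMS the median level was 0.22 in control and 4.20 in MMS, and in 129 of the 248 (52.0%) the control level lay within 0.5 of its lowest value. Among all autosomal DMRs higher in MMS this share was 52.6%. In members higher in control the median was 5.21 in control and 3.54 in MMS, and 9 of the 179 (5.03%) had MMS near its lowest value, where all DMRs higher in control had 4.61%. The typical gain in MMS thus started from a region with hardly any reads in control, and the typical loss left a clear signal in MMS.

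The size of the difference followed the same split. Members higher in MMS had a median difference of 3.49, from 1.02 to 5.92, and members higher in control a median of -1.63, from -0.75 to -5.61. The medians of all autosomal DMRs were 3.43 and -1.73. With the lower group clear of its lowest value, the medians were 2.61 in 119 members higher in MMS and -1.60 in 170 higher in control. A difference of at least 2 in either direction was found in 280 members (65.6%), against 69.7% of all autosomal DMRs. In these measures members stayed close to the whole table.

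**Figure D3:**
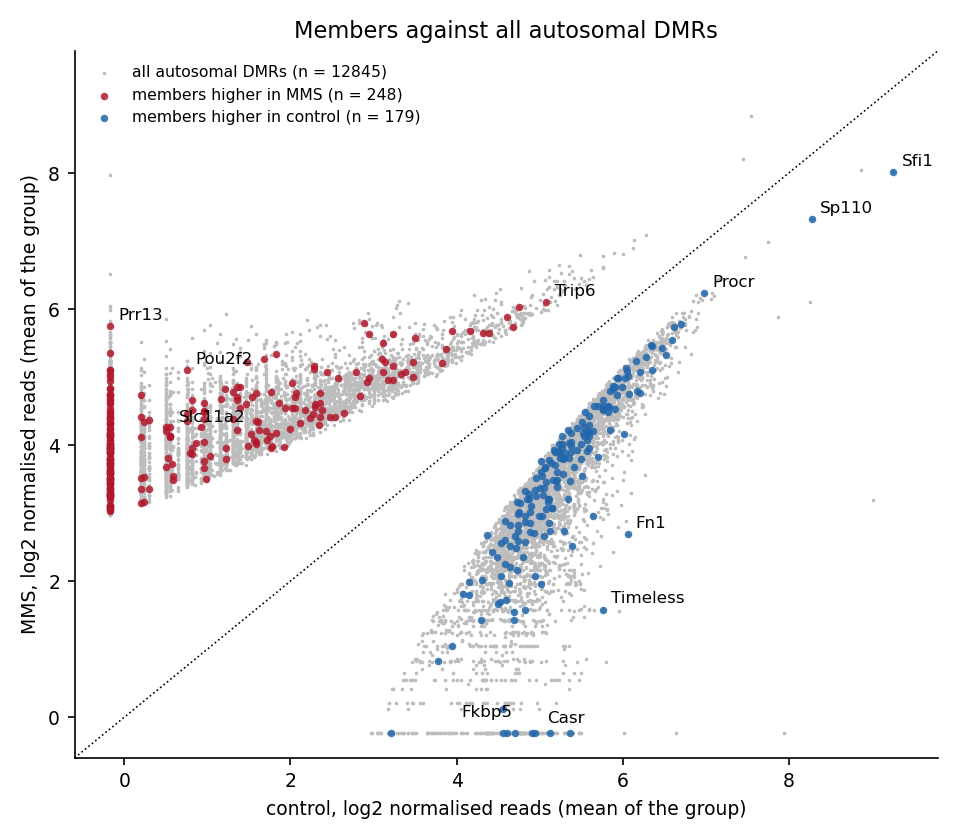
Level in MMS against level in control (log2 of normalised reads, mean of each group) for 427 members (red, higher in MMS; blue, higher in control) and all 12845 autosomal DMRs (grey), with the line of equality dotted. Members follow the whole table: 129 of the 248 members higher in MMS stack near the lowest control value, and few blue points lie near the lowest MMS value.

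Members held more CpG and less repeat than the whole table. Their median was 1.66 CpG per 100 bp, with quartiles of 1.21 and 2.21, against 1.32 for all autosomal DMRs. This lay above intron DMRs (1.36) and below promoter (1.82) and exon DMRs (2.02). The median share of soft-masked repeat sequence was 12.7% in members and 20.6% in all DMRs, and the median GC content 49.1% and 47.4%. Promoter DMRs (13.3% repeat, 50.1% GC) and exon DMRs (9.2% and 50.3%) were also below all DMRs in repeat and above them in GC, so neither was particular to members. Members were 153 to 3219 bp wide with a median of 562 bp (all DMRs, 544 bp). Only 4 members (0.937%) met the length, GC and CpG criteria of a CpG island, as 56 of all DMRs (0.436%) did, so these were mostly not islands.

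Outermost and internal ends differed in CpG content. The 114 members at outermost ends had a median of 1.40 CpG per 100 bp, 16.0% repeat and a width of 501 bp. The 313 at internal ends had 1.73 CpG per 100 bp, 11.6% repeat and a width of 601 bp. Of the members higher in MMS, 43.8% at outermost ends and 54.9% at internal ends had control near its lowest value. Members higher in control had 1.69 and those higher in MMS 1.62 CpG per 100 bp, nearly the same.

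**Figure D4:**
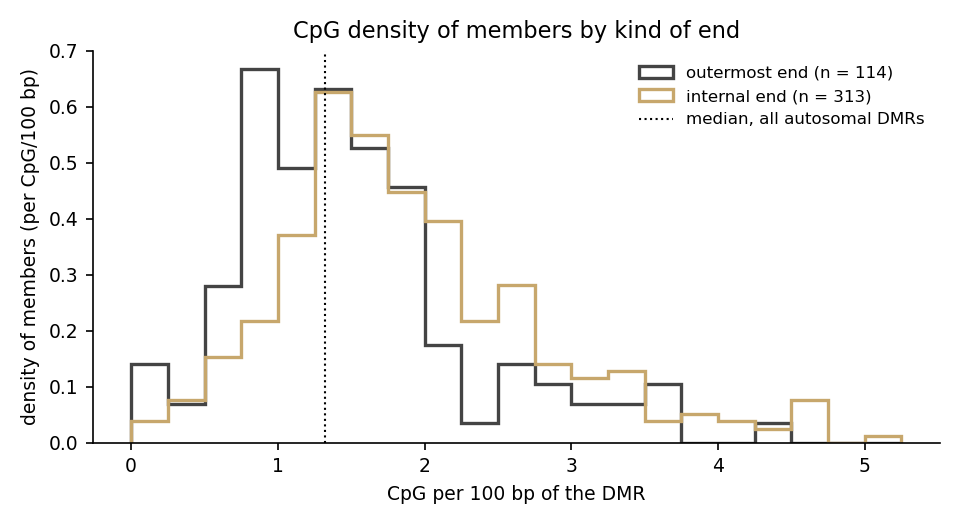
Distribution of CpG sites per 100 bp of the DMR for the 114 members at outermost ends (dark) and the 313 at internal ends (tan), drawn as densities, with the median of all autosomal DMRs, 1.32, dotted. The outermost group lies lower, with a median of 1.40 against 1.73.

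The 114 members at outermost ends come closest to the 3′ end of a gene in the usual sense, and those named here beyond the rule were chosen after their values were seen. As the window sets, the centre lay past the gene in most of them (103), and 12 had their centre in a 3′ UTR. The median difference was 3.37 in the 64 higher in MMS and -1.82 in the 50 higher in control. Iqgap3, a scaffold of actin signalling, had -0.17 in control and 4.75 in MMS over its end (chr3:88120470-88121949), and Poll, a DNA repair polymerase, had -0.17 and 4.62. With control clear of its lowest value, Susd6 had 1.82 and 5.34 and Csmd2 had 0.96 and 4.48. Among those higher in control, Tmem130 had 4.91 and -0.24 in a region that was 76.7% repeat, Sdhd, a subunit of succinate dehydrogenase, had 3.95 and 1.05, and the homeobox gene Dmbx1 had 6.08 and 4.75. Strong and weak regions were thus found at gene ends in both directions.

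The signal hexamers AATAAA and ATTAAA, read on the strand of the gene in the 40 bases before the end, separated the kinds of end. At outermost ends 69.6% of all genes had one, and at all internal ends 23.6%. The nearest end had one in 84 of the 114 members at outermost ends (73.7%) and in 46 of the 313 at internal ends (14.7%). Among members higher in MMS the share was 29.4% and among those higher in control 31.8%, so ends with and without a hexamer took part in both directions. A match describes the letters only.

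The largest gains in MMS from a control level more than 0.5 above its lowest value were found at genes of varied function. In 5 of these 6 the control level was still within 1 of that value, at 1.41 to 1.75 normalised reads, and Pianp alone lay above, at 2.79. The DMR at Pou2f2, which encodes the POU transcription factor Oct-2, rose in level from 0.75 in control to 5.10 in MMS, or from 1.68 to 34.3 normalised reads. It spanned chr7:25099063-25100831, covered the end of a protein-coding transcript 12677 bp before the outermost end, and held 24 CpG sites in 1769 bp. At Slc11a2, the gene of a divalent metal and iron transporter, the level was 0.81 in control and 4.67 in MMS (chr15:100409374-100410320), again over an internal end.

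The other 4 of this group were Gstt1, Pianp, Tmem232 and Acox3. Gstt1, a glutathione S-transferase, had 0.50 in control and 4.27 in MMS over the outermost end and 3′ UTR of the gene. Pianp, a neural membrane protein, had 1.48 and 5.22 in a 3′ UTR, 892 bp past an internal end that lies 2047 bp before the outermost one. Tmem232 had 0.55 and 4.27 at 867 bp past its outermost end, and the 3 other DMRs in that gene were also higher in MMS. Acox3, a peroxisomal acyl-CoA oxidase, had 0.50 and 4.21 past an internal end.

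The largest differences in the table's own terms started at the lowest control value. Prr13 had the largest of all members, from -0.17 in control to 5.75 in MMS, at chr15:102459932-102461588. Evc2, a ciliary protein of hedgehog signalling, reached 5.35, and Plekhb2 reached 5.10. All 3 lay at internal ends. Control was near 1 read in each, so the size of these differences rests on the MMS level and on where the lowest value lies.

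The strongest members higher in MMS had signal in both groups. Trip6, a LIM-domain adaptor of cell adhesion sites, had 5.08 in control and 6.10 in MMS, a difference of 1.02 that was the smallest of all members in this direction. Bicra, a subunit of a SWI/SNF chromatin remodelling complex, had 4.75 and 6.03 and held 96 CpG sites in 2055 bp (4.67 per 100 bp). Mtss1l, a membrane-bending actin regulator, had 4.61 and 5.88 and held 67 CpG sites in 1812 bp.

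Of the members higher in control, the largest fall to a level clear of the lowest value was at Timeless. Its level was 5.76 in control and 1.58 in MMS, or 54.2 and 2.99 normalised reads. Timeless encodes a replication fork protein related to a fly clock gene. The DMR (chr10:128244538-128245030) was centred in coding sequence, 854 bp past the end of a short transcript that ends 9011 bp before the outermost end, and held 19 CpG sites in 493 bp. At Fn1, which encodes the matrix protein fibronectin, the level was 6.06 in control and 2.69 in MMS over only 168 bp (chr1:71597670-71597837).

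Further falls of this kind were found at E030025P04Rik, Tmem273, Trpm1 and Myof. E030025P04Rik had 4.69 in control and 1.42 in MMS, and Tmem273 had 4.82 and 1.58. Both lay at outermost ends with the centre past the gene. Trpm1, a cation channel known from the retina, had 4.69 and 1.55, and Myof, a membrane repair protein, had 5.02 and 1.95 at an end 80378 bp inside the gene. Of these 6 members, 4 were 164 to 169 bp wide, near the narrowest listed.

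At 9 members MMS was near its lowest value, and Emc8, Mob2 and Casr had the largest differences among them. Emc8, a subunit of the endoplasmic reticulum membrane complex, had 5.37 in control and -0.24 in MMS, and its DMR also lay in the bodies of 2 overlapping gene models. Mob2, a regulator of NDR kinases, had 5.13 and -0.24 although its 171 bp held no CpG site. Casr, the calcium-sensing receptor, had 4.94 and -0.24 at 711 bp past its outermost end. These DMRs were 187, 171 and 166 bp wide.

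The highest levels of all members belonged to regions higher in control. Sfi1, a centrosomal protein, had 9.26 in control and 8.01 in MMS, or 613 and 258 normalised reads over 390 bp. Sp110, an interferon-induced nuclear protein, had 8.28 and 7.32, and Procr, the endothelial protein C receptor, had 6.98 and 6.23. No other placement with at least 95% identity over at least 50% of the region was found for these 3 in the reference chromosomes. Such a placement was found for 8 members, among them Pum3, Slc29a4 and Ankrd6, whose reads may come from more than 1 place. Copies missing from the reference could not be found by this search. Whether the reads of the other members, Sfi1, Sp110 and Procr included, come from 1 place was therefore not settled. Without those 8, the share higher in MMS was 58.2%.

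Both directions were found among the CpG-richest members and among those without CpG. The CpG-richest members were Nbeal2 (5.00 CpG per 100 bp), Acin1 (4.73), Bicra (4.67) and Dcun1d1 (4.63). Nbeal2, needed for platelet granules, had a level of -0.17 in control and 3.65 in MMS, and Acin1, a nuclear splicing-associated protein, had -0.17 and 3.96. Dcun1d1, which promotes cullin neddylation, went the other way with 5.85 and 4.79, and 81.1% of its region was repeat. Of the 4 members without CpG, 3 were higher in control, among them Mob2 and the transcription factor Casz1 (5.53 and 4.14), and 1, Dct (0.59 and 3.54, named after its values were seen), was higher in MMS.

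A few genes had a member at more than 1 end. Both members of Akt2, a kinase of insulin signalling, were higher in control, with differences of -2.30 and -1.68. The same held for Arid5a (-2.04 and -1.22), an RNA- and DNA-binding protein, and for Dpp3 (-1.90 and -1.25), a peptidase. Both members of Tbc1d13, a Rab regulator, were higher in MMS (1.72 and 3.40). Npr2, the receptor of C-type natriuretic peptide, had members of opposite direction. The first had 5.76 in control and 4.57 in MMS (chr4:43648317-43649177). The other lay further along the gene, also at the end of Spag8, and had -0.17 and 5.05 (chr4:43650568-43651069).

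**Figure D5:**
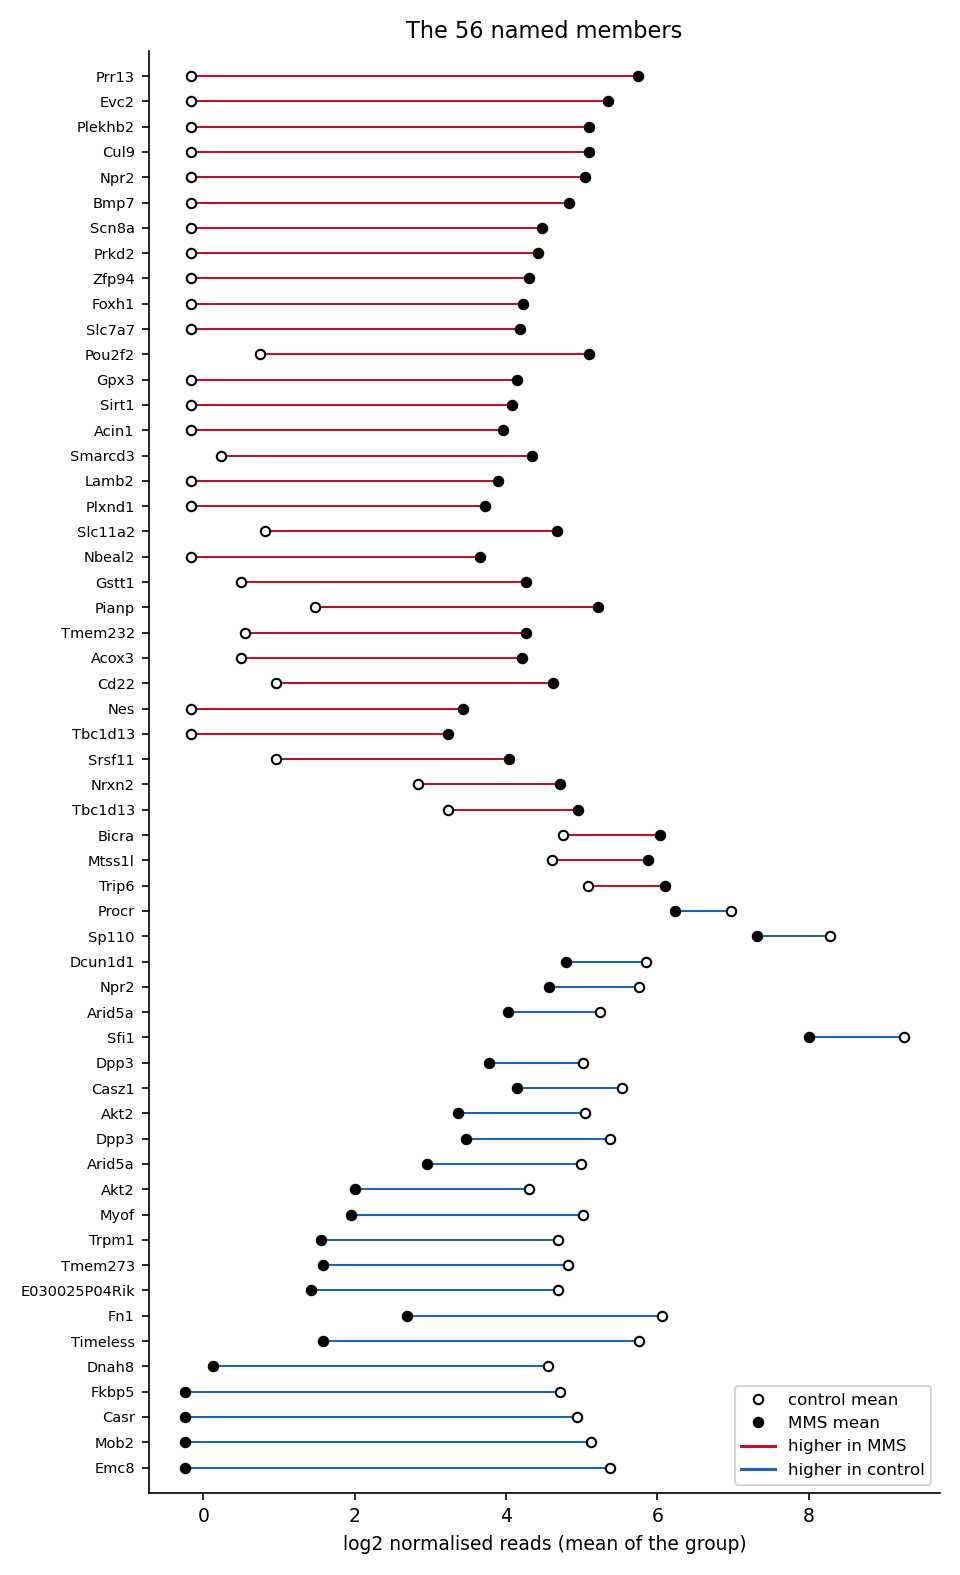
Levels (log2 of normalised reads) in control (open circles) and MMS (filled circles) of the 56 members named by a fixed rule, ordered by difference, with red lines where MMS was higher and blue lines where control was higher. Many red lines start at the lowest control value, -0.17, and 4 blue lines end at the lowest MMS value, -0.24.

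Among genes of the stress response and clock, 3 of 56 had a member (5.36%, against 2.08% of all protein-coding genes). Fkbp5 had 4.71 in control and -0.24 in MMS in a DMR centred 431 bp past its outermost end (chr17:28398305-28399022). That region held 5 CpG sites in 718 bp and was 54.7% repeat, and the 1 other DMR in the gene was higher in MMS. Fosb, an AP-1 subunit, had 5.25 and 3.81 at its outermost end. Hlf, a clock-output transcription factor, had 3.23 and 5.17 and so moved the other way. The lists of genes here hold only part of each class, so their counts and directions are those of the listed genes, and members of a class outside its list are named where they were noticed. Examples beyond the member with the largest difference in each list were chosen after their values were seen.

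Genes of the synaptic list had members about as often as all protein-coding genes (2.08%). Of 103 such genes, 2 had one (1.94%): Nrxn2, a presynaptic adhesion protein, with 2.84 in control and 4.72 in MMS, and Dlgap1, a postsynaptic scaffold, with 6.71 and 5.78. None of the 142 listed neurotransmitter and neuropeptide receptors and none of the 48 listed hypothalamic peptides and hormones had a member. A receptor outside the list, Npsr1 for neuropeptide S, had one with -0.17 in control and 4.62 in MMS. Of 200 ion channel genes 5 had one (2.50%), 3 higher in MMS and 2 higher in control. Scn8a, a neuronal sodium channel, had -0.17 and 4.48, and Scn4a, the muscle sodium channel, had 4.59 and 2.25. Glial genes had 3 of 40 (7.5%, the highest share of the 18 lists on a count of 3), with Nes at -0.17 and 3.43, Aif1 at 5.19 and 3.70 and Gja1 at 5.71 and 4.58.

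Lists of transcription and chromatin regulators are read beside 2.08% of all genes with a member and 58.1% of members higher in MMS. In the list of homeobox, Fox and nuclear receptor genes, 4 of 243 had a member (1.65%), and all 4 were higher in MMS, with Foxh1, a partner of SMAD proteins, at -0.17 and 4.23 and Rxra, a retinoid receptor, at 0.81 and 3.95. Of homeobox genes outside the list, Dmbx1 was higher in control, as given above, and Pknox1 had -0.17 and 3.74, so the class was not of 1 direction. Zinc finger genes had 8 of 453 (1.77%), 6 higher in MMS and 2 in control, with Zfp94 at -0.17 and 4.31. The list of chromatin enzymes, which also holds genes such as Arid5a and Smarcd3 that do not encode enzymes, had 7 members at 6 of 151 genes (3.97%). Of these members 5 were higher in control, among them both at Arid5a. Hdac4, a histone deacetylase, had 4.52 in control and 1.69 in MMS at its outermost end, and Kdm2b, a histone demethylase, had 4.83 and 2.95. Sirt1, an NAD-dependent deacetylase, had -0.17 and 4.08. With so few members in a list, no direction is particular to it.

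Metabolism and signalling lists are likewise read beside the 2.08% of all genes with a member and the 58.1% of members higher in MMS. Solute carriers had 15 of 372 genes with a member (4.03%), 9 higher in MMS and 6 in control. Slc7a7, a cationic amino acid transporter, had -0.17 and 4.18, Slc2a4, the insulin-dependent glucose transporter, had 2.00 and 4.23, and Slc38a4, another amino acid transporter, had 5.13 and 2.73. Listed kinases and phosphatases had 12 members at 11 of 435 genes (2.53%), 8 higher in MMS, with Prkd2 at -0.17 and 4.42 and the hepatocyte growth factor receptor Met at -0.17 and 3.97. Kinases outside the list included Grk3 (6.04 and 5.14), Hipk1 (2.94 and 5.64) and Csk (4.29 and 1.42), and Mylk and Cdc42bpb also had a member. Listed ubiquitin genes had 9 of 389 (2.31%), 5 higher in MMS, with Cul9 at -0.17 and 5.10 and Trim60 at 4.56 and -0.24. Outside that list, Ube4b (5.12 and 2.85) and Wwp2 (5.01 and 3.37) were higher in control, and Btrc (-0.17 and 4.01) and Josd2 (0.96 and 3.67) higher in MMS.

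Growth factor and adhesion lists had 2 to 5 genes with a member each, again beside 2.08% of all genes and 58.1% of members higher in MMS. The listed ligands and regulators of Wnt, FGF, TGF-beta, Notch and hedgehog signalling had 3 of 140 (2.14%), with Bmp7 at -0.17 in control and 4.83 in MMS and Gli2 at 5.38 and 4.04. Sost, a Wnt inhibitor outside the list, had 1.22 and 3.80. Axon guidance had 2 of 176 (1.14%), Plxnd1 (-0.17 and 3.72) and Ntn3 (0.50 and 3.68), both at outermost ends. Extracellular matrix had 5 of 141 (3.55%), with Lamb2 at -0.17 and 3.90, Fn1 as given above and Tnr, a matrix protein of the brain, at 5.93 and 4.74. Matrix members were split, 3 higher in MMS and 2 in control.

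The remaining lists were those of RNA processing, cytoskeleton and immunity. Of the 99 listed genes of cleavage, polyadenylation and RNA binding, 3 had a member (3.03%, against 2.08% of all genes), all higher in MMS. These were Srsf11, a splicing factor (0.96 in control and 4.04 in MMS), Celf2, a neuronal RNA-binding protein (1.62 and 4.22), and Papola, a poly(A) polymerase (1.56 and 4.07). Outside the list, Lin28a (2.94 and 4.98) was also higher in MMS and both members of Arid5a were higher in control. Cytoskeleton and motor genes had 9 of 287 (3.14%), 6 higher in control, with Dnah8 at 4.56 and 0.12 and the neuronal kinesin Kif5a at 5.85 and 4.22. Immune genes had 7 of 396 (1.77%), 5 higher in control, with Cxcl12 at 4.88 and 2.72, while Cd22 had 0.96 and 4.62. These counts are too small to set a list's direction apart from the 58.1% of all members higher in MMS, and none was tested.

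There were 12 genes with a DMR both in a promoter and at a 3′ end. In 9 of them both DMRs differed in the same direction, which is read beside the 65.8% of promoter DMRs and 58.1% of members higher in MMS, shares that make many pairs alike in direction, and no test was made. Fgfr1, a fibroblast growth factor receptor, was higher in MMS by 2.17 at the promoter and 3.76 at the end, and Plxnd1 by 2.21 and 3.89. In Lrch1, Aloxe3 and Pum3 the directions were opposite. The Lrch1 promoter had 4.92 in control and 1.42 in MMS, whereas a DMR at a transcript end 9570 bp away had -0.17 and 4.74.

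Other DMRs in the same gene did not follow the direction of the member. The gene bodies of 128 members (30.0%) touched another DMR. Of 112 such DMRs in genes with a member higher in MMS, 69 (61.6%) were higher in MMS, and of 102 in genes with a member higher in control, 60 (58.8%) were. Both shares lie near the 62.4% of all autosomal DMRs.

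There were 11 members (2.58%) in the windows of 2 genes, all of them pairs that end towards each other, with 3 higher in MMS and 8 in control. Beside the 58.1% of all members higher in MMS, 11 members are too few to read a direction from. The largest differences were at Npr2 and Spag8, at Gpx3 and Tnip1 (-0.17 in control and 4.14 in MMS) and at Smarcd3 and Chpf2 (0.23 and 4.34). Gpx3 encodes a secreted glutathione peroxidase and Smarcd3 a subunit of a chromatin remodelling complex. Such a DMR cannot be assigned to either gene.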

How the data were processed

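Methylated DNA of hypothalamus was measured by meDIP-seq in 3 control and 3 MMS pools, beside 2 inputs and 1 IgG control. Per the methods, the authors mapped reads to mm10, called peaks in the broad mode of MACS2 against inputs (with the human genome size setting, which enters the expected background) and compared groups with DiffBind and DESeq2, after normalisation to the inputs and subtraction of IgG. The submitters' processing notes name MACS2 2.1, DiffBind and HOMER 4.8. The authors deposited log2 means of normalised reads over all libraries and over each group. The columns named untreated and treated were read as control and MMS. The authors deposited also their own fold, p-value and FDR, which were not used. The labels name the methylcytosine antibody for inputs and IgG as well, and these were told apart by title.

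Directions and differences (MMS minus control) were computed from the group means. Groups were not tested against each other here, since only their means were used. A group was called near its lowest value if at most 0.5 (log2) above it. Transcript ends came from GENCODE M21 and sequence from GRCm38, and 104 DMRs on sex chromosomes were left out. Repeat means soft-masked sequence. CpG islands needed at least 200 bp, 50% GC and an observed over expected CpG ratio of 0.6. Other placements were searched with BLAST 2.17.0, which needed an exact run of 64 bp. The assignment was tested on simulated positions. Scripts ran under Python 3.11.15 with pandas 2.3.3, numpy 2.4.6, matplotlib 3.10.9 and scipy 1.17.1.

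Members were named by rule: in each direction the 6 largest differences with the lower group clear of its lowest value, the 3 largest others and the 3 highest means, then the 4 most and 2 fewest CpG per 100 bp, every gene with several members, the largest difference in each of 18 gene lists and the 3 largest in windows of 2 genes. The members and lists were chosen with earlier results of these data known. Alternatives were other windows, transcript types, overlap rules, limits on difference, level and width, and another limit for the lowest value.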

Additional observations from a re-analysis of the deposited data

How the results depend on the processing

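No paired analysis was possible because the table holds group means only, and for the same reason leaving out each library was not run. The counts of 427 DMRs and 433 genes followed the rule. A window of 500 bp past the end gave 250 DMRs at 250 genes with a median of 1.75 CpG per 100 bp, and 1000 bp on both sides gave 710 at 707 genes. Protein-coding transcripts alone gave 255 at 259 genes, with control near its lowest value in 44.8% of those higher in MMS. Outermost ends alone gave 120 at 124 genes, with 1.42 CpG per 100 bp, a width of 498 bp and a median difference of -1.74 where control was higher. Any overlap gave 661 at 668 genes with a width of 685 bp. A difference of at least 2 kept 280 at 285 genes, with 80.4% higher in MMS, a width of 494 bp and a median of -2.46 where control was higher. A higher level of at least 4 gave 46.3% higher in MMS, 33.6% with control near its lowest value, a width of 670 bp and a median of 3.33 where MMS was higher. A width of at least 300 bp gave a median of 743 bp, and a limit of 1 for the lowest value gave 59.7%. The other 55 recomputed values stayed within the 95% interval of the reported share or median or, for a count, within 1.5 times of it, and none changed sign. Several of these settings select on width, level or difference directly. The values used give neither depth per library nor the spread between pools, so no precision was computed for a single difference.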
